A study of Drosophila melanogaster with 21 samples.

Results

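The comparison set scrib- NACT bskDN eye-antennal discs against FRT control discs. It shows how gene expression differs in discs with Notch activation, loss of scrib and a block of Jun kinase (JNK) together. Members were chosen by label: the 3 arrays of discs carrying scrib mutant clones that overexpress NotchACT and bskDN, and the 3 arrays of FRT control discs, 6 of the 21 arrays in the series. Discs of every group came from larvae of the w1118 background, dissected in the third instar on day 5 after egg deposition, and clones in all groups were made by MARCM with ey-FLP1 and FRT82B, so that Tub-GAL4 drives the transgenes and mCD8-GFP in the clones alone. The clones of scrib- NACT bskDN discs were homozygous for scrib1 and expressed NotchICD, the intracellular domain that signals without ligand, together with bskDN, a mutant Basket protein that blocks its own kinase, JNK. The labels call these discs tumours. The clones of FRT control discs carried neither the scrib mutation nor these transgenes. No group of the series carried scrib loss, NotchICD or bskDN alone, so their effects cannot be told apart in this comparison. Beside these groups stand 3 arrays of scrib- NACT discs, in which JNK was left active, and 3 of scrib- RasACT bskDN discs, with activated Ras in place of NotchACT. RNA came from whole discs, which hold wild type cells around the clones. Each control sample pooled many pairs of discs, and the number pooled for the Notch genotypes is not given in the sources used here. Fewer cells of a type and less RNA per cell therefore cannot be told apart in any value below.

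Notch is a surface receptor whose intracellular domain, once cut free, enters the nucleus and turns on target genes, foremost the Enhancer of split genes, which repress neural fate. In the eye disc Notch signalling also drives growth, partly through the Pax gene eyg and the cytokine gene upd1, and restricts how many cells become photoreceptors. Scribble keeps epithelial cells polarised. Cells that lose it activate the JNK cascade, which runs through the ligand Eiger, its receptors Wengen and Grindelwald and the kinases Hemipterous and Basket to the transcription factors Jra and kay, and which induces puc, the phosphatase that feeds back on Basket.

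The bskDN transgene was checked first. The brightest of the bsk probe sets, which cannot separate transgene from endogenous RNA and were kept out of all tests, had a level of 15.79 ± 0.04 log2 in scrib- NACT bskDN discs and 11.64 ± 0.12 in FRT control discs (SD, n = 3 each). scrib itself, measured by its main probe set, read 10.89, 10.91 and 10.98 in scrib- NACT bskDN discs, against 11.75, 11.57 and 11.80 in FRT control discs. It was lower by a log2 change of -0.78 (SE 0.21, limma adjusted p = 0.016), short of the minimum change of 1 used for a call, while a second, dimmer scrib probe set was called at -1.02 (adjusted p = 0.031), and the mean change of all scrib probe sets was -0.37. The probe sets of Notch were not analysed here as a named gene.

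Expression was read as GCRMA signal on a log2 scale, on which 1 unit is a doubling and 2.17 the floor. Probe sets of at least 5 log2 numbered 7294 to 7358 on scrib- NACT bskDN arrays and 7517 to 7575 on FRT control arrays. The scrib- NACT bskDN replicates lay close together, with a root mean square deviation from their group mean of 0.074 to 0.093 log2, against 0.155 to 0.174 for the control. The difference between the 5′ and 3′ GAPDH control probe sets, a sign of RNA integrity, ran from -0.52 to -0.30 log2 in scrib- NACT bskDN discs and from -0.54 to -0.47 in FRT control discs. The same difference for eIF-4a ran from -1.52 to -1.36 log2 in scrib- NACT bskDN discs and from -1.29 to -1.24 in FRT control discs, and its part in the results was not tested. The poly-A spike-ins averaged 6.26 to 7.08 log2 on scrib- NACT bskDN arrays and 7.71 to 7.88 on FRT control arrays. The hybridisation controls averaged 10.8 to 11.1 log2 on scrib- NACT bskDN arrays and 11.2 to 11.3 on FRT control arrays. These differences between arrays cannot be told apart from the genotype, and their part in the results was not tested. Nothing in the labels says that the 3 arrays of a group came from separate collections of animals. The p-values therefore measure only the spread between arrays within groups, which may be technical. The fit pools this spread over all groups of the series, so a p-value does not rest on the compared arrays alone. Where a gene is constant at the floor in other groups, the pooled spread can be smaller than that between the compared arrays.

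Of 18766 probe sets tested, 1070 (5.70%) were called, at an adjusted p under 0.05 and an absolute log2 change over 1. Of these, 294 were higher and 776 lower in scrib- NACT bskDN discs, so that 27.5% of the calls were rises. After a further quantile normalization of the arrays the split was 446 higher and 638 lower (41.1% rises). In terms of named genes, each represented by 1 probe set, 217 of 11981 were higher (1.81%) and 606 lower (5.06%), and the median log2 change of all named genes was 0.00. The arrays of the groups did not overlap for 5994 of the 18766 probe sets, among them 1067 of the 1070 called ones. Among the lists of genes described below, falls were most frequent among photoreceptor, neuronal, haemocyte and muscle genes.

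**Figure D1:**
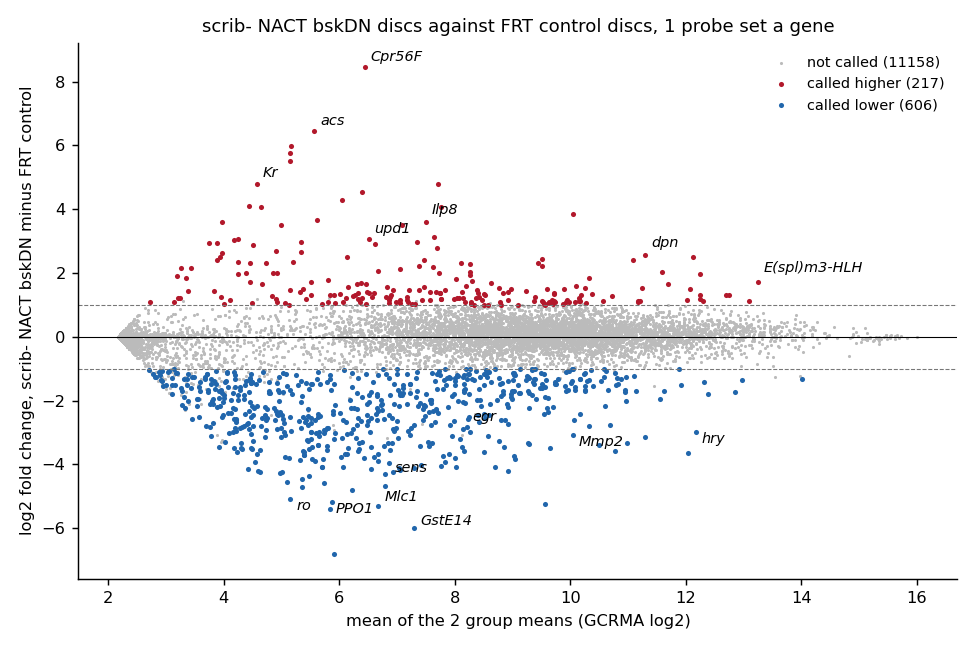
Log2 fold change of each named gene (scrib- NACT bskDN minus FRT control, vertical axis) against the mean of the 2 group means (GCRMA log2, horizontal axis), 1 probe set a gene. Red points are the 217 genes called higher and blue points the 606 called lower, and the dashed lines mark a change of 1 log2. Falls outnumber rises, and the changes run from -6.83 for Nplp4 to 8.46 for Cpr56F, each set against a level near the floor, where background correction limits the size.

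Among genes that the rule on large changes named, the cuticle protein gene Cpr56F had the largest rise. It read 10.67, 10.70 and 10.62 in scrib- NACT bskDN discs, against 2.20, 2.22 and 2.22 in FRT control discs, a change of 8.46 (SE 0.50, adjusted p = 2.4e-08). Scrib- NACT discs were at 11.97 and scrib- RasACT bskDN discs at 4.13, so Cpr56F was high in both Notch genotypes. The chitin-binding protein gene obst-E was at 10.09 to 10.12 in scrib- NACT bskDN discs and 4.70 to 5.80 in FRT control discs (change 4.78, adjusted p = 1.6e-08). The zinc transporter gene Zip102B was at 8.50 to 8.83 in scrib- NACT bskDN discs and 4.08 to 4.22 in the control (4.53, adjusted p = 8.3e-11). Both were high in scrib- NACT discs too, at 9.20 and 9.05, and close to the control in scrib- RasACT bskDN discs, at 5.39 and 4.02. The glutathione transferase gene GstD3 was likewise high in both Notch genotypes, with a mean of 9.68 in scrib- NACT discs, and at 8.06 to 8.30 in scrib- NACT bskDN discs and 2.61 to 4.74 in the control (4.28, adjusted p = 3.8e-06). Tektin-C, which encodes a microtubule protein of cilia and sperm tails, was at 7.82 to 7.97 in scrib- NACT bskDN discs and 2.17 to 2.63 in the control (5.50). Taf12L, a paralog of a general transcription factor subunit, was at 6.79 to 6.87 in scrib- NACT bskDN discs and 3.65 to 3.98 in the control (2.96, or 1.49 averaged over its probe sets). For these 2 genes all 3 tumour genotypes were above the control, with Tektin-C at 8.44 in scrib- NACT and 8.65 in scrib- RasACT bskDN discs.

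Kr, acs, retinin, Sox21b, nub, Reg-2 and Lcp65Af were lower in both other tumour genotypes than in scrib- NACT bskDN discs. Kr, the zinc finger gap gene of the embryo, read 7.06, 6.59 and 7.28 in scrib- NACT bskDN discs and 2.17 on every FRT control array. In scrib- NACT and scrib- RasACT bskDN discs its mean was also 2.17, and the differences from both were called (4.80 each, adjusted p = 3e-13 and 1.7e-13). Groups at the floor lower the pooled spread of the fit. These p-values thus understate the spread of Kr between the scrib- NACT bskDN arrays (SD 0.35). acs read 8.60, 8.92 and 8.85 in scrib- NACT bskDN discs, against 2.32, 2.43 and 2.28 in FRT control discs (change 6.45, SE 0.09, adjusted p = 3.3e-16), and 2.17 in both other tumour genotypes. retinin, which encodes a protein of the corneal lens, was at 7.35 to 7.62 in scrib- NACT bskDN discs and 3.49 to 4.05 in the control (3.66, adjusted p = 2.1e-10), and at 2.80 in scrib- NACT discs. The HMG-box gene Sox21b was at 8.02 to 8.13 in scrib- NACT bskDN discs and 4.96 to 5.42 in the control (2.91, adjusted p = 4e-08), but at 3.55 in scrib- NACT discs. The POU-domain gene nub, known from the wing, was at 8.55 to 9.04 in scrib- NACT bskDN discs and 5.59 to 6.22 in the control (2.96, adjusted p = 1.7e-05, or 1.10 averaged over its probe sets), with 5.76 in scrib- NACT discs. Reg-2 rose by 4.07 and the larval cuticle gene Lcp65Af by 3.86, both above scrib- NACT discs as well, by 1.53 and 2.79. Of genes with CG or CR numbers, 7 rose by 3.11 to 5.98, and CG18765 and CG13840 (5.98 and 5.75) stood under 3 log2 on all 18 arrays of the other groups. CG11529 (4.08) was high in the other tumour genotypes too, at 6.16 in scrib- NACT and 5.87 in scrib- RasACT bskDN discs. The sources used here do not describe the stock of each genotype beyond its named alleles, so other differences between stocks cannot be told apart from the genotype in these values, those of Kr, acs, CG18765 and CG13840 included.

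Of the genes of the Enhancer of split and Bearded complexes, known Notch targets among them, 13 were measured. In the comparison with the control 3 rose, 2 fell and 8 were not called, with a median log2 change of 0.25. The helix-loop-helix repressor gene E(spl)m3-HLH read 14.13, 14.12 and 14.05 in scrib- NACT bskDN discs, against 12.54, 12.41 and 12.21 in FRT control discs. This was a rise of 1.72 (SE 0.15, adjusted p = 1e-06). Bearded family proteins bind the ubiquitin ligase Neuralized. Among their genes, E(spl)m2-BFM read 13.22, 13.22 and 13.26 in scrib- NACT bskDN discs and 11.35, 11.47 and 10.96 in the control, a rise of 1.98 (SE 0.18, adjusted p = 2.4e-06). E(spl)malpha-BFM rose by 1.30 (13.31 to 13.40 in scrib- NACT bskDN discs and 11.59 to 12.41 in the control, adjusted p = 6.5e-05). Brd and E(spl)m4-BFM went the opposite way. Brd read 9.28, 9.33 and 9.31 in scrib- NACT bskDN discs and 10.58, 11.27 and 10.76 in the control (-1.56, adjusted p = 0.0002), and E(spl)m4-BFM changed by -1.48 (adjusted p = 0.00023).

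The other measured repressor genes of the Enhancer of split complex moved by less than the minimum change. E(spl)mgamma-HLH and E(spl)m8-HLH had no probe set with 1 symbol and were not measured. E(spl)mbeta-HLH differed by 0.94 (adjusted p = 0.002), with 12.81 to 12.85 in scrib- NACT bskDN discs and 11.82 to 12.05 in the control. Without control replicate 1 it was called (1.01, adjusted p = 0.0041). E(spl)mdelta-HLH differed by -0.71 (adjusted p = 0.00076) and E(spl)m7-HLH by 0.75 (adjusted p = 0.072). The list thus held rises, falls and uncalled members in discs with activated Notch. Ocho (0.66) and Tom (-0.51) were not called, and E(spl)m5-HLH, E(spl)m6-BFM and BobA had means under 3 log2 in both groups. Of 18766 probe sets, 1003 (5.34%) were called between scrib- NACT bskDN and scrib- NACT discs. In that comparison, which differs in bskDN, E(spl)m2-BFM was higher by 1.19 (adjusted p = 0.00031), E(spl)malpha-BFM by 1.58 (adjusted p = 1.3e-05), Brd differed by -1.62 and E(spl)m4-BFM by -1.14. E(spl)m3-HLH differed by 0.60, not enough for a call.

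Of 7 other genes known to respond to Notch, 3 rose, 1 fell and 3 were not called (median change 0.98). dpn, a helix-loop-helix gene that Notch maintains in neural stem cells, read 12.69, 12.39 and 12.67 in scrib- NACT bskDN discs, against 10.15, 9.79 and 10.11 in FRT control discs (change 2.57, SE 0.21, adjusted p = 6.7e-07). eyg, through which Notch promotes eye growth, read 10.52, 10.69 and 10.67 in scrib- NACT bskDN discs and 8.13, 8.53 and 8.53 in the control (2.23, SE 0.41, adjusted p = 0.0012). The wing selector gene vg read 5.96, 5.47 and 5.69 in scrib- NACT bskDN discs and 2.66, 2.71 and 2.61 in the control (3.04, SE 0.29, adjusted p = 2.6e-06, or 1.57 averaged over its probe sets). dpn and eyg were also above scrib- NACT discs, by 1.28 (adjusted p = 0.00054) and 1.79 (adjusted p = 0.0068), whereas the difference of vg from scrib- NACT discs was 0.56 (adjusted p = 0.28). klu differed by 0.98 from the control and by 1.89 from scrib- NACT discs (adjusted p = 6.9e-05), where its mean was 7.33. edl, an antagonist of the Ets factor Yan, fell by 1.35 (adjusted p = 0.0013). ct read 6.04 to 6.09 in scrib- NACT bskDN discs and 6.17 to 6.34 in the control, and Hey was at the floor on all 6 arrays.

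Of 12 components of the Notch pathway, 2 fell and 10 were not called (median -0.09). They were the ubiquitin ligase gene neur, at 8.88 to 9.29 in scrib- NACT bskDN discs and 10.32 to 10.65 in the control (-1.48, adjusted p = 2.1e-05), and mam, the coactivator of the Notch transcription complex, at 8.86 to 9.12 in scrib- NACT bskDN discs and 9.79 to 10.46 in the control (-1.17, adjusted p = 0.0005, or -0.55 averaged over its probe sets). fng, which modifies the receptor's sugars, differed by -0.31.

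**Figure D2:**
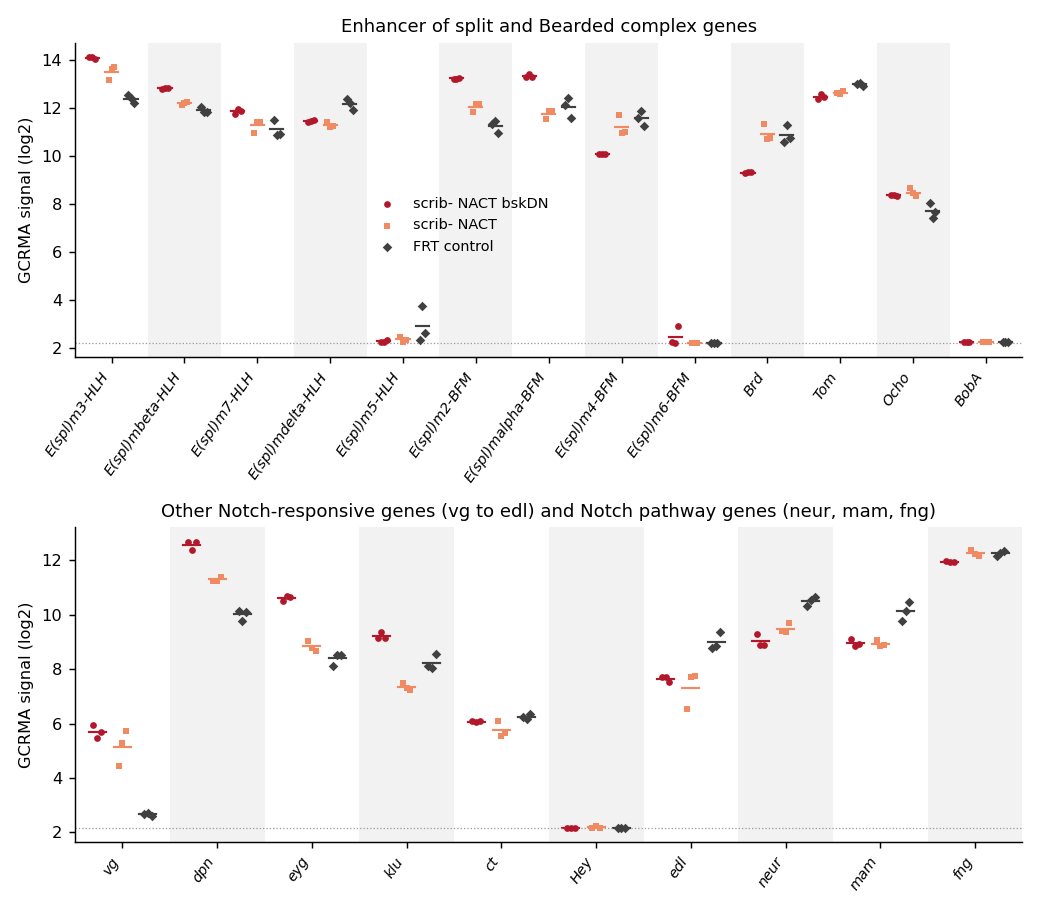
GCRMA signal (log2, vertical axis) of Enhancer of split and Bearded complex genes (top) and of other Notch-responsive and Notch pathway genes (bottom) on each array of scrib- NACT bskDN (circles), scrib- NACT (squares) and FRT control discs (diamonds). Horizontal bars are means of 3 arrays and the dotted line is the floor of 2.17. E(spl)m3-HLH, E(spl)m2-BFM, vg, dpn and eyg lie above the control, and Brd and E(spl)m4-BFM below it.

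The JNK cascade was examined next, since bskDN was expressed to block it. Of 11 genes listed for the pathway 0 rose, 4 fell and 7 were not called, and all 11 had changes below 0 (median -0.53). This list includes puc and scaf, which are themselves regulated by JNK. The ligand gene egr read 6.94, 6.52 and 6.90 in scrib- NACT bskDN discs, against 9.79, 9.44 and 9.62 in FRT control discs (-2.83, SE 0.15, adjusted p = 7.7e-09). Its receptor gene wgn read 7.11, 6.83 and 7.18 in scrib- NACT bskDN discs and 8.86, 9.18 and 9.13 in the control (-2.02, SE 0.11, adjusted p = 1.2e-08). The other receptor gene, grnd, differed by -0.23 (adjusted p = 0.58). puc, the phosphatase gene that reports JNK activity, read 8.95, 8.72 and 8.63 in scrib- NACT bskDN discs and 9.76, 10.63 and 10.50 in the control (-1.53, SE 0.21, adjusted p = 8.2e-05). In scrib- NACT discs puc stood at 11.05, from which scrib- NACT bskDN discs differed by -2.28. The Fos gene kay was called at -1.25 (adjusted p = 0.029), but not without control replicate 2 (-1.24, adjusted p = 0.077) or 3 (-1.02, 0.13), nor without scrib- NACT bskDN replicate A (-1.18, 0.092) or B (-1.21, 0.087), and stood at -0.61 averaged over its probe sets. The Jun gene Jra differed by -0.86, the kinase genes hep (0.19 averaged over its probe sets), slpr, Mkk4 and msn by -0.31, -0.06, -0.32 and -0.03, and scaf by -0.53. scaf was lower by 2.18 than in scrib- NACT discs (adjusted p = 2.5e-06), where it was at 12.33.

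The JNK-responsive genes that were measured split. Of 9 measured, 2 rose, 3 fell and 4 were not called (median -0.15). Mmp1, upd3, zip, rpr and hid had no probe set with 1 symbol and were not measured. upd1, the cytokine ligand of the JAK-STAT pathway, read 8.04, 7.98 and 8.11 in scrib- NACT bskDN discs, against 5.86, 4.32 and 4.76 in FRT control discs (3.06, SE 0.29, adjusted p = 2.5e-06). Ilp8, a relaxin-like hormone gene by which damaged or overgrown discs delay pupariation, read 9.22, 9.36 and 9.32 in scrib- NACT bskDN discs and 6.76, 3.79 and 6.56 in the control (3.59, SE 0.58, adjusted p = 0.00038). With the 6 arrays fitted alone the adjusted p of Ilp8 was 0.071. The difference from scrib- NACT discs, where JNK was active, was -0.84 for upd1 (adjusted p = 0.063) and -1.28 for Ilp8 (adjusted p = 0.19), so that neither was called lower with bskDN. Both means were lower with bskDN, and the lack of a call does not show that they were unchanged.

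The falls were those of the growth factor gene Pvf1, the Ets gene Ets21C and the bZIP gene Atf3. Pvf1 read 5.07, 5.01 and 5.10 in scrib- NACT bskDN discs and 7.31, 7.62 and 7.85 in the control (-2.54, adjusted p = 7.5e-06). Atf3 read 6.83, 6.18 and 6.44 in scrib- NACT bskDN discs and 8.12, 7.57 and 8.18 in the control (-1.47, adjusted p = 0.00093). Ets21C was near the floor at 2.26 to 2.63 in scrib- NACT bskDN discs and at 3.16 to 5.03 in the control (-1.52, adjusted p = 0.0099), with -0.96 and no call without control replicate 1 and an adjusted p of 0.18 with the 6 arrays alone. All 3 were also below scrib- NACT discs, Pvf1 by 4.06, Ets21C by 4.04 and Atf3 by 2.72 on the log2 scale. The filamin gene cher differed from the control by 0.64 and from scrib- NACT discs by -1.67 (adjusted p = 2.2e-05). Pax, the paxillin gene, differed from the control by -0.07 and from scrib- NACT discs by -1.77 (adjusted p = 1.3e-06). Gadd45 (-0.15) and upd2, which was at the floor or close to it in both groups, were not called. Of these 9 genes 6 were called lower and 0 higher in scrib- NACT bskDN than in scrib- NACT discs.

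Within the JAK-STAT list of 8 genes upd1 alone rose. The receptor gene dome differed by 0.33 and Stat92E by -0.10. chinmo, a zinc finger gene known to respond to this pathway, was at 8.60 to 8.84 in scrib- NACT bskDN discs and 7.45 to 8.72 in the control, and at 11.27 in scrib- NACT discs. zfh2 fell by 1.39, a call that a further quantile normalization removed (-0.70).

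**Figure D3:**
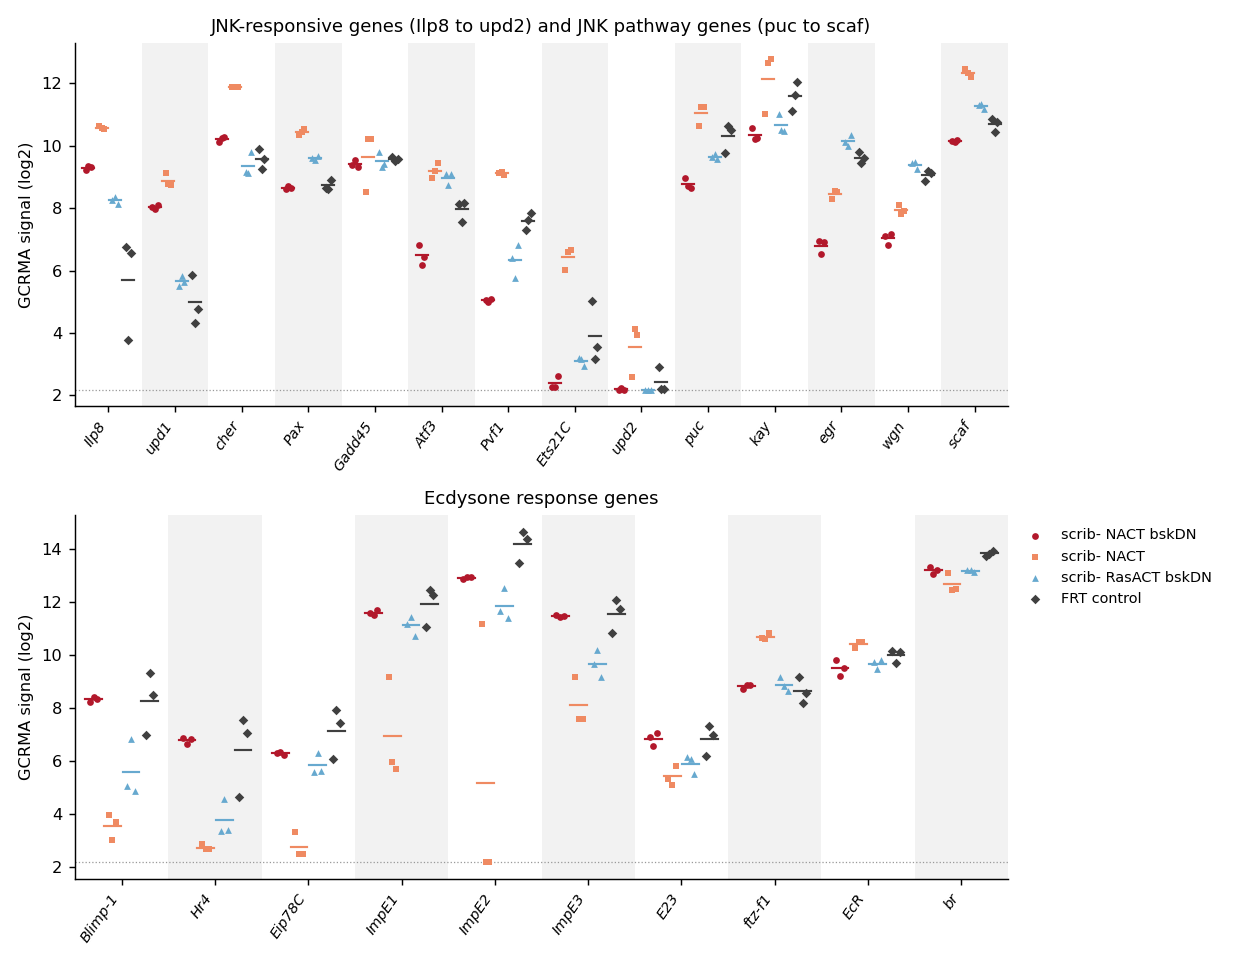
GCRMA signal (log2, vertical axis) of JNK-responsive and JNK pathway genes (top) and ecdysone response genes (bottom) on each array of scrib- NACT bskDN (circles), scrib- NACT (squares), scrib- RasACT bskDN (triangles) and FRT control discs (diamonds). Bars are means of 3 arrays and the dotted line is the floor. In scrib- NACT bskDN discs Ilp8 and upd1 lie above the control, and puc and Pvf1 lie below it. Blimp-1, Hr4 and ImpE1 lie within the wide range of the control arrays in scrib- NACT bskDN discs and below it in scrib- NACT discs.

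Ecdysone, the moulting hormone, acts through the receptor EcR to induce a cascade of transcription factors and, in discs, the Imp genes of eversion. Of 17 response genes 0 were called in scrib- NACT bskDN discs against the control (median -0.22) by limma, and 4 had changes above 0. The list's summed signal was 15.05 to 15.11 log2 in scrib- NACT bskDN discs and 15.44 to 16.02 in the control. With no minimum change, the nuclear receptor gene Hr39 alone had an adjusted p under 0.05 (-0.61, adjusted p = 0.0035), and Hr3 differed by -1.33 (adjusted p = 0.054). The transcription factor gene Blimp-1 read 8.23, 8.41 and 8.33 in scrib- NACT bskDN discs, against 6.96, 9.31 and 8.47 in FRT control discs (0.08, SE 0.56, adjusted p = 1). Its mean was 3.55 in scrib- NACT discs, a difference of 4.77 (adjusted p = 2.4e-05). Hr4 read 6.86, 6.65 and 6.83 in scrib- NACT bskDN discs and 4.62, 7.56 and 7.05 in the control, with a mean of 2.72 in scrib- NACT discs. ImpE1 read 11.57, 11.51 and 11.68 in scrib- NACT bskDN discs and 11.04, 12.44 and 12.25 in the control, with 6.94 in scrib- NACT discs. In these 3 genes the scrib- NACT bskDN arrays lay within the range of the control arrays. Control replicate 1 was the lowest control array for each, and without it the nuclear receptor genes Hr3 (-1.98, adjusted p = 0.0007) and Eip78C (-1.38, adjusted p = 0.0056) were called lower in scrib- NACT bskDN discs. Both were also called with array weights (adjusted p = 0.00036 and 0.0047), and Hr3 with 15 arrays, a further quantile normalization or a filter on low values (adjusted p = 0.046, 0.04 and 0.018). Against scrib- NACT discs 7 of the 17 were higher in scrib- NACT bskDN discs and 1, ftz-f1, was lower (-1.86, adjusted p = 0.00031). Eip78C was higher by 3.53, ImpE3 by 3.36 and E23 by 1.42. ImpE2 differed by 7.75, although 1 of the 3 scrib- NACT arrays was far above the others, which were at the floor.

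Photoreceptor genes were low in scrib- NACT bskDN discs. Of 18 genes of photoreceptor recruitment, 0 rose, 11 fell and 7 were not called, with a median change of -2.12 beside 0.00 over all named genes. The homeobox gene ro, required in the R2 and R5 photoreceptors, read 2.83, 2.65 and 2.35 in scrib- NACT bskDN discs, against 7.62, 7.61 and 7.84 in FRT control discs (-5.08, SE 0.27, adjusted p = 9.7e-09). The zinc finger gene sens, which acts in the founder photoreceptor R8, read 4.91, 4.91 and 4.82 in scrib- NACT bskDN discs and 8.64, 8.87 and 8.99 in the control (-3.95, SE 0.33, adjusted p = 6.7e-07). ato, the proneural gene that selects R8, read 6.73, 7.06 and 7.01 in scrib- NACT bskDN discs and 9.73, 9.60 and 9.25 in the control (-2.59, SE 0.25, adjusted p = 3.3e-06). ato and sens act at the first step of photoreceptor choice. phyl, which targets the repressor of neural fate Tramtrack for destruction, read 6.30, 5.85 and 6.15 in scrib- NACT bskDN discs and 9.84, 10.03 and 9.86 in the control (-3.82, SE 0.18, adjusted p = 2.6e-09). The hairy gene hry, expressed ahead of the morphogenetic furrow, read 10.66, 10.72 and 10.70 in scrib- NACT bskDN discs and 13.88, 13.54 and 13.57 in the control (-2.97, SE 0.17, adjusted p = 1.3e-08). The receptor tyrosine kinase gene of R7, sev, changed by -2.86, svp of the R3, R4, R1 and R6 cells by -2.22 (-1.15 averaged over its probe sets), the spalt genes salm and salr by -2.19 and -2.05, and lz by -1.35. pros was called (-2.59, adjusted p = 0.046) only with all 6 arrays, and leaving out any 1 of them gave adjusted p values of 0.087 to 0.13. gl, the zinc finger gene of all photoreceptors, differed by -0.94 (adjusted p = 0.0026), and emc, an inhibitor of proneural proteins, by 0.37, the highest of the list.

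The falls were not shared by all tumour genotypes. Of 18766 probe sets, 1216 (6.48%) were called between scrib- NACT bskDN and scrib- RasACT bskDN discs, and 10 of the 18 photoreceptor genes were among them, all lower in scrib- NACT bskDN discs. ro was at 8.81 in scrib- RasACT bskDN discs, a difference of -6.20 (adjusted p = 5.4e-10), svp at 10.91 (-4.13) and phyl at 10.44 (-4.35, adjusted p = 3e-10). In scrib- NACT discs ro was at 4.67 (difference of scrib- NACT bskDN discs -2.06, adjusted p = 7.3e-05), and hry was at 13.16 (difference -2.47, adjusted p = 9.7e-08).

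Neuronal genes were low as well. Of 12 genes of neuronal differentiation, 0 rose, 9 fell and 3 were not called (median -1.57). futsch, a microtubule-binding protein of axons, read 5.08, 4.15 and 4.09 in scrib- NACT bskDN discs, against 9.41, 8.87 and 9.11 in FRT control discs (-4.69, SE 0.45, adjusted p = 3.3e-06, or -1.58 averaged over its probe sets). The sodium pump subunit gene nrv3 read 4.86, 4.40 and 4.94 in scrib- NACT bskDN discs and 8.32, 8.94 and 8.59 in the control (-3.88, SE 0.30, adjusted p = 4.4e-07). cpx, the synaptic complexin gene, was at 2.35 to 3.03 in scrib- NACT bskDN discs and 5.30 to 6.07 in the control (-3.01, adjusted p = 9.3e-05, or -1.79 averaged over its probe sets). The pan-neuronal gene elav fell by less, at 9.38 to 9.55 in scrib- NACT bskDN discs and 10.82 to 11.20 in the control (-1.55, adjusted p = 2.5e-05), and the cadherin gene CadN by 1.51. The ELAV family gene fne was called at -2.75 (adjusted p = 0.024). Left without control replicate 1 or 2 it had an adjusted p of 0.066 or 0.12, and without scrib- NACT bskDN replicate 1, A or B one of 0.07, 0.064 or 0.063. chp, the chaoptin gene of photoreceptor cells (-1.58), lost its call without control replicate 2 or 3 (adjusted p = 0.089 and 0.074) or scrib- NACT bskDN replicate 1, A or B (0.058, 0.082 and 0.067), and the synapsin gene Syn (-1.18) without control replicate 2 (-0.73). nSyb, the synaptobrevin gene, differed by -0.36. Against scrib- RasACT bskDN discs 10 of the 12 were lower in scrib- NACT bskDN discs, with nrv3 at 10.92 and cpx at 8.08 in scrib- RasACT bskDN discs.

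Genes that set up the eye field were affected in part. Of 18 retinal determination genes 1 rose, 5 fell and 12 were not called (median -0.47). The Pax6 genes ey and toy, at the top of the network, were not lower: ey read 11.02 to 11.12 in scrib- NACT bskDN discs and 10.62 to 10.69 in the control (0.42, adjusted p = 0.17), and toy 13.19 to 13.26 in scrib- NACT bskDN discs and 12.61 to 12.65 in the control (0.60, adjusted p = 0.0096, or 1.04 averaged over its probe sets). Further down the network 5 genes fell, dac and eya among them. dac read 10.71, 10.38 and 10.63 in scrib- NACT bskDN discs, against 12.46, 12.38 and 12.74 in FRT control discs (-1.95, SE 0.16, adjusted p = 5.8e-07). The phosphatase and cofactor gene eya read 11.52, 11.34 and 11.59 in scrib- NACT bskDN discs and 13.21, 13.29 and 13.33 in the control (-1.80, SE 0.14, adjusted p = 3.6e-07). dan and danr, the paired genes of distal antenna and eye, fell by 2.35 and 2.17, and the homeobox gene Optix by 1.67 (adjusted p = 2.7e-05). The homeobox gene so, Eya's DNA-binding partner, differed by -0.96 (adjusted p = 6.2e-05), just under the minimum change. eyg, counted above with the Notch-responsive genes, was the 1 rise. The labelled tissue was checked by 9 eye-antennal disc markers, ey and toy among them, of which 5 fell, and whose summed signal was 14.15 to 14.22 log2 in scrib- NACT bskDN discs and 14.71 to 14.78 in the control.

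Antennal and leg-type patterning genes went both ways. Of 18 genes 5 rose, 3 fell and 10 were not called (median -0.21). ss, which specifies the distal antenna, read 6.39, 6.08 and 6.70 in scrib- NACT bskDN discs, against 9.17, 9.65 and 9.73 in FRT control discs (-3.13, SE 0.35, adjusted p = 1.5e-05). Dll, the distal selector of antenna and leg, was at 8.04 to 8.44 in scrib- NACT bskDN discs and 9.80 to 10.26 in the control (-1.75, adjusted p = 0.00022), and bab2 fell by 1.40. Of the odd-skipped family, which Notch induces at leg joints, drm, sob and odd rose and bowl (-0.06) was not called. drm read 11.99, 12.01 and 11.99 in scrib- NACT bskDN discs and 10.30, 10.57 and 10.57 in the control (1.52, SE 0.12, adjusted p = 3.7e-07). sob rose by 1.31 and odd by 1.13, the zinc finger genes btd by 1.15 and Sp1 by 1.17. Sp1 stood at 0.99, short of a call, without control replicate 2, and at 0.44 averaged over its probe sets. al, a homeobox gene of the distal tip, differed by -0.92 (adjusted p = 0.0054).

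**Figure D4:**
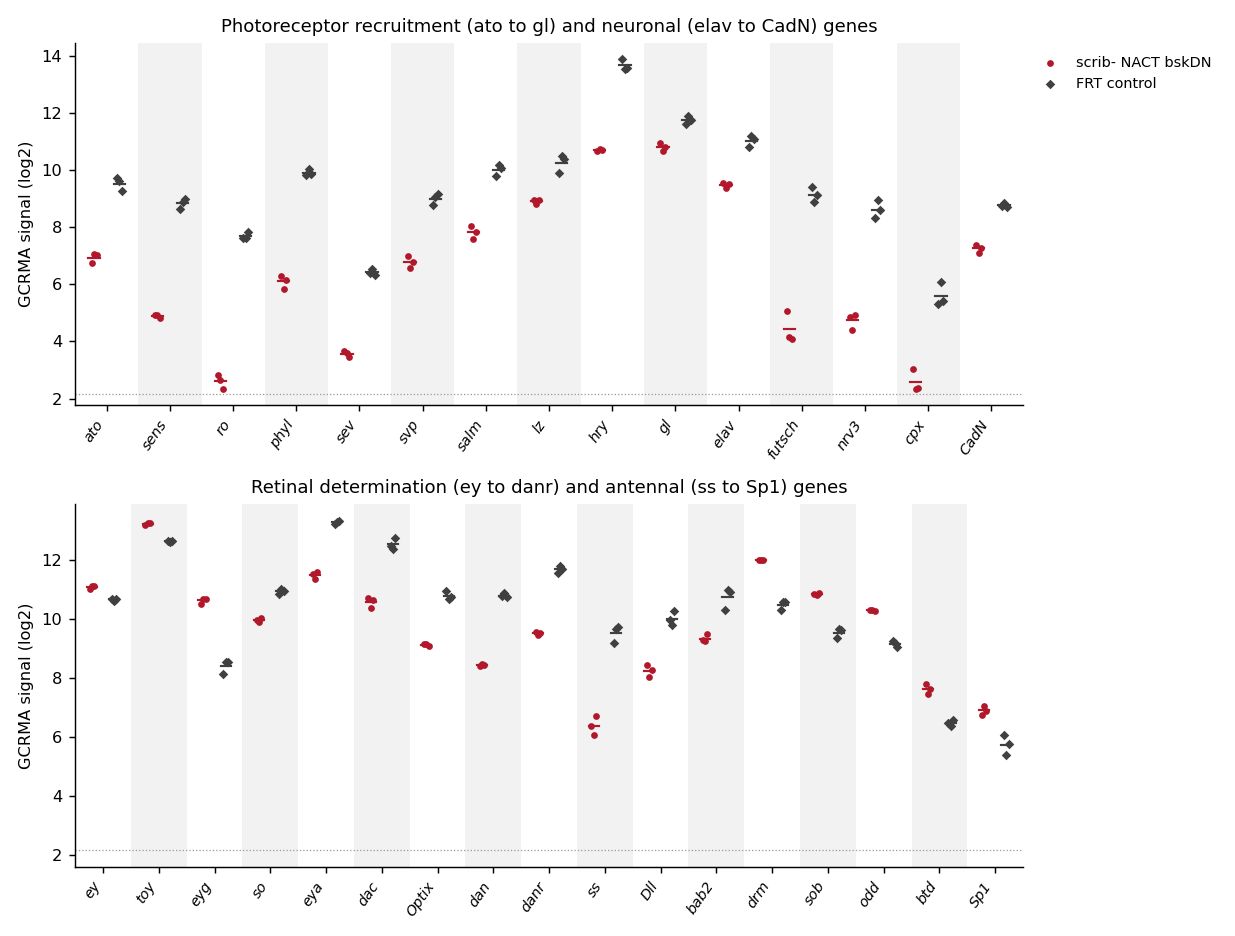
GCRMA signal (log2, vertical axis) of photoreceptor and neuronal genes (top) and of retinal determination and antennal genes (bottom) on each array of scrib- NACT bskDN (circles) and FRT control discs (diamonds). Bars are means of 3 arrays and the dotted line is the floor. The photoreceptor and neuronal genes lie below the control, ro at 2.35 to 2.83 against 7.61 to 7.84, while ey and toy do not.

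Growth genes differed by small amounts. Of 13 DNA replication genes 0 were called, yet all 13 were above 0, from 0.28 to 0.64 (median 0.46). Among 6193 named genes with a mean of at least 5 log2 the median change was 0.05, and 55.1% were above 0. PCNA, the sliding clamp gene, read 12.92, 13.13 and 12.99 in scrib- NACT bskDN discs, against 12.66, 12.48 and 12.53 in FRT control discs (0.46, adjusted p = 0.00032). Of 10 cell cycle genes 0 were called (median 0.38). CycE, the cyclin of S phase entry, was at 10.92 to 11.28 in scrib- NACT bskDN discs and 10.20 to 10.46 in the control (0.79, adjusted p = 0.0025), and CycB, the mitotic cyclin, differed by 0.70 (adjusted p = 0.00065). Of 12 nucleolar and RNA polymerase I genes 0 were called, with 12 above 0 and a median of 0.68. Fib, the fibrillarin gene, was at 12.28 to 12.58 in scrib- NACT bskDN discs and 11.64 to 11.81 in the control (0.71, adjusted p = 6.2e-05), and Surf6 differed by 0.89 (adjusted p = 3.4e-05).

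Of 69 mitochondrial ribosomal protein genes 0 were called and 66 were above 0 (median 0.46). The 41 cytoplasmic ribosomal protein genes had a median of 0.00, and the 3 that rose were paralogs of ribosomal protein genes: RpS5b at 9.16 to 9.35 in scrib- NACT bskDN discs and 6.94 to 7.54 in the control (1.94, adjusted p = 4.6e-05), RpLP0-like (1.13, adjusted p = 1.1e-06) and RpL22-like (1.06, adjusted p = 0.015). RpL22-like lost its call without control replicate 3 (0.97, adjusted p = 0.066) or scrib- NACT bskDN replicate B (0.79, adjusted p = 0.086). None of the 12 genes of the Hippo pathway, the 10 of cell death, the 12 of cell polarity, the 12 of septate junctions or the 9 of glycolysis were called, and their median changes lay between -0.14 and 0.09. ex, the Hippo pathway target that reports Yorkie activity, differed by 0.77 (adjusted p = 0.015).

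Of 12 genes of the Ras and EGF receptor pathway 0 rose and 2 fell (median -0.25), the secreted inhibitor gene aos (-1.77, adjusted p = 5.8e-07) and edl. aos was at 8.02 to 8.36 in scrib- NACT bskDN discs and 9.85 to 10.09 in the control. Among 12 genes of Wingless, Dpp and Hedgehog signalling Wnt6 rose by 1.60 (adjusted p = 4.5e-05) and the T-box gene bi fell by 1.37 (adjusted p = 4.5e-07). Of 4 Hox genes Dfd, which marks the maxillary part of the disc, fell by 1.81 (adjusted p = 1.3e-05). Of 18 Polycomb and Trithorax genes lola fell by 1.53, or by 0.63 averaged over its probe sets. Of 4 heat shock genes Hsp68 was called at -2.76 (adjusted p = 0.027), a call lost without any 1 of the 6 arrays (adjusted p 0.051 to 0.08). Among 9 immune genes 0 were called. Beside these counts, 1.81% of all named genes rose and 5.06% fell, and none of these lists was tested against these shares.

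Matrix and migration genes were lower in part. Of 18 measured, 0 rose, 9 fell and 9 were not called (median -1.17). The matrix metalloprotease gene Mmp1 had no probe set with 1 symbol and was not measured. The collagen IV genes vkg and Col4a1 encode the main fibre of the basement membrane. vkg read 3.96, 4.34 and 4.46 in scrib- NACT bskDN discs, against 8.52, 8.28 and 7.03 in FRT control discs (-3.69, SE 0.57, adjusted p = 0.00027). Col4a1 read 3.95, 4.02 and 4.26 in scrib- NACT bskDN discs and 8.10, 7.94 and 6.45 in the control (-3.42, SE 0.53, adjusted p = 0.00026). SPARC, a collagen chaperone, was at 6.36 to 7.10 in scrib- NACT bskDN discs and 9.42 to 10.03 in the control (-2.98, adjusted p = 3.5e-05). The laminin subunit genes LanA, LanB1 and LanB2, the other network of the basement membrane, differed by -0.12, -0.03 and -0.14, and the integrin gene mys by 0.04. The matrix metalloprotease gene Mmp2 read 8.37, 8.62 and 8.55 in scrib- NACT bskDN discs and 11.59, 11.59 and 11.58 in the control (-3.07, SE 0.23, adjusted p = 2.5e-07, or -1.54 averaged over its probe sets), and its inhibitor gene Timp fell by 2.41. Genes of the PDGF- and VEGF-related pathway fell as well: the receptor gene Pvr was at 7.33 to 7.51 in scrib- NACT bskDN discs and 9.26 to 9.55 in the control (-1.99, adjusted p = 1.5e-05), and the ligand gene Pvf2 fell by 2.15. The lipid phosphatase gene wun2 was called at -1.49, short of a call after a further quantile normalization (-0.82), and lay 6.30 log2 below scrib- NACT discs, where it was at 11.09 (adjusted p = 1.6e-12).

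Collagen IV and SPARC are made in larvae by haemocytes and fat body, so markers of both were read beside them. Of 13 haemocyte markers 0 rose and 8 fell (median -3.05). Hml, the hemolectin gene of plasmatocytes, read 3.19, 3.14 and 3.57 in scrib- NACT bskDN discs, against 8.19, 8.09 and 6.73 in FRT control discs (-4.37, SE 0.70, adjusted p = 0.00035). PPO1, a prophenoloxidase gene of crystal cells, read 3.28, 2.76 and 3.34 in scrib- NACT bskDN discs and 8.33, 9.44 and 7.84 in the control (-5.41, SE 0.86, adjusted p = 0.00033). PPO2, Nplp2, He and Pxn fell by 3.74, 4.11, 3.78 and 3.57, Pxn by 1.79 averaged over its probe sets. The GATA gene srp and the receptor gene eater were called at -3.05 and -2.79. Without control replicate 2 their adjusted p values were 0.09 and 0.099 and without scrib- NACT bskDN replicate A 0.076 and 0.073, and srp also lost its call without control replicate 1 or scrib- NACT bskDN replicate B (0.08 and 0.077). With a term for arrays whose label is a letter, 5 of the 13 were called, and with the replicate block 3, since PPO2, Nplp2, He, srp and eater were not called. NimC1, a plasmatocyte receptor gene, was near the floor in both groups, and Ppn, which disc cells can express, differed by -0.28. The list's summed signal was 11.57 to 11.70 log2 in scrib- NACT bskDN discs and 12.45 to 13.04 in the control, and 13.53 to 14.07 in scrib- NACT discs. Of 4 fat body markers 0 were called, with a summed signal of 6.91 to 7.11 in scrib- NACT bskDN discs and 8.10 to 10.15 in the control. Among them Fbp2 was called lower with the 6 arrays alone (-2.78, adjusted p = 0.022) and with array weights (-2.88, adjusted p = 0.0045). Lsp1alpha, Lsp1beta and Lsp1gamma had no probe set with 1 symbol and were not measured. The part of these cells in the falls of matrix genes was not tested.

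Muscle markers were low too. Of 9 markers 0 rose and 7 fell (median -3.45). The myosin light chain gene Mlc1 read 4.13, 4.04 and 3.91 in scrib- NACT bskDN discs, against 10.13, 9.63 and 8.24 in FRT control discs (-5.31, SE 0.54, adjusted p = 5.7e-06). Prm, TpnC73F and Act87E, for paramyosin, troponin C and an actin, fell by 3.80, 3.72 and 3.56, TpnC73F by 1.86 averaged over its probe sets. Among large falls by the rule stood 4 further muscle genes, the myofilin gene Mf (-5.17), Mlp60A (-4.80), Zasp66 (-4.57) and Mp20 (-4.31). Averaged over their probe sets Mlp60A stood at -1.60 and Zasp66 at -2.54. The summed signal of the 9 markers was 8.59 to 8.92 in scrib- NACT bskDN discs and 10.51 to 11.54 in the control, with 11.42 to 11.61 in scrib- NACT discs. bt, the projectin gene, was called at -1.88, with adjusted p values of 0.067, 0.052 and 0.072 without control replicates 1 and 2 and scrib- NACT bskDN replicate A, and sls, the titin-like gene, differed by -0.33.

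Of 7 glial markers 3 fell. The glutamine synthetase gene Gs2 read 3.19, 3.29 and 2.93 in scrib- NACT bskDN discs and 7.94, 7.70 and 7.11 in the control (-4.45, SE 0.47, adjusted p = 8.5e-06). repo, the glial homeobox gene, was at 5.56 to 6.31 in scrib- NACT bskDN discs and 8.55 to 8.88 in the control (-2.86, adjusted p = 9.5e-06), and the barrier receptor gene moody fell by 2.61. Glia enter the eye disc along photoreceptor axons, and the part of glia in the falls of neuronal genes was not tested. The summed signal of glial markers was 11.98 to 12.41 in scrib- NACT bskDN discs and 12.55 to 12.58 in the control. Among 9 neuroblast markers dpn rose and 4 fell, among them insc (-2.60) and mira (-1.98). Neuroblasts express dpn with ase and wor, and ase was at 2.53 to 2.78 in scrib- NACT bskDN discs and 3.90 to 4.46 in the control (-1.59, adjusted p = 0.006, but 0.18 with the replicate block and 0.067 with a term for arrays labelled by a letter), while wor (-0.69) was not called and cas was at the floor or close to it. Salivary gland markers were high on FRT control replicates 1 and 2 among the 6 arrays: the summed signal of 6 markers was 7.05 to 7.15 in scrib- NACT bskDN discs and 8.02 to 11.48 in the control. Sgs3, the called member (-3.93), lost its call without control replicate 1 (-3.16, adjusted p = 0.12) or 2 (-2.91, 0.14), and without scrib- NACT bskDN replicate 1, A or B (0.071, 0.074 and 0.074). Of 4 tracheal markers 1 fell, bnl by 1.68 (adjusted p = 0.0079), with -0.99 and no call after a further quantile normalization and -0.58 averaged over its probe sets, and serp and verm differed by 0.53 and 0.33.

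**Figure D5:**
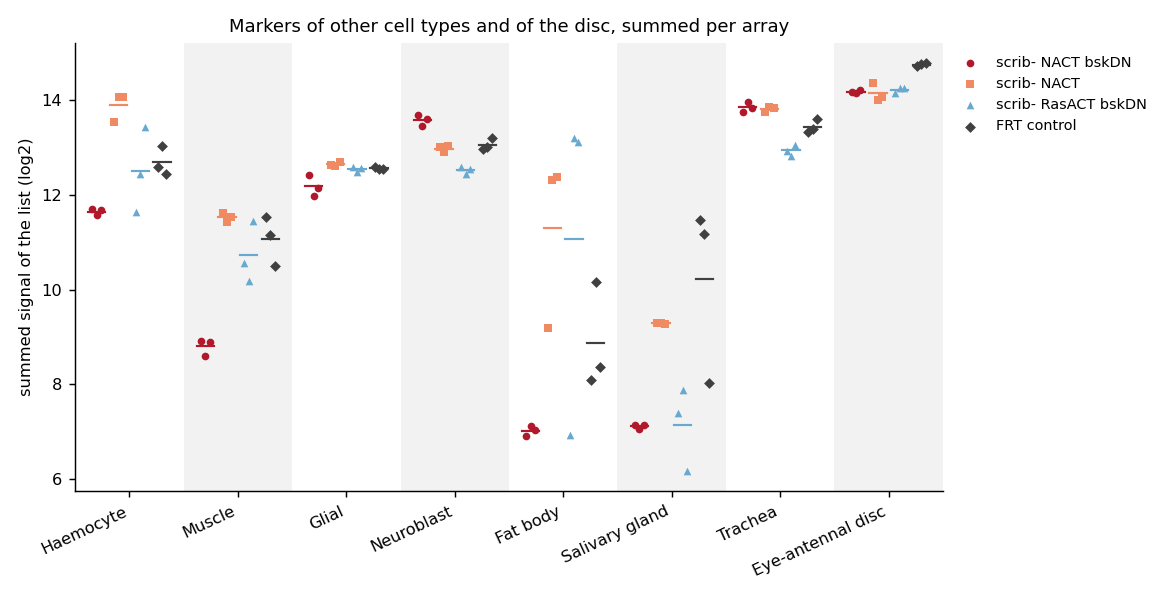
Summed signal of each marker list (log2 of the sum of the linear signals, vertical axis) on each array of scrib- NACT bskDN (circles), scrib- NACT (squares), scrib- RasACT bskDN (triangles) and FRT control discs (diamonds). Bars are means of 3 arrays. Muscle and haemocyte markers are lower in scrib- NACT bskDN discs than in the control, at 8.59 to 8.92 against 10.51 to 11.54 for muscle, and the disc markers stay above 14 log2 in all groups.

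Cuticle genes and glutathione transferase genes, large families of mixed expression, held calls in both directions. Over all named genes 1.81% rose and 5.06% fell, and neither family was tested against these shares. Of 78 cuticle protein genes 4 rose and 7 fell, and 49 were within 0.1 log2 of the floor in both groups. Besides Cpr56F and Lcp65Af the rises were those of Cpr64Ac (2.16, adjusted p = 9.7e-09), which was under 3 log2 on all arrays of the other groups, and Lcp65Ad (2.01). Lcp9, Cpr49Ah and Cpr66D changed by -3.26, -2.68 and -1.90. Lcp65Ac, called at -2.72, was read at 7.95 and 6.25 on FRT control replicates 1 and 2 and near 3 on every other of the 6 arrays, and lost its call without control replicate 1 (-1.63, adjusted p = 0.19) or 2 (-2.48, 0.13) and without scrib- NACT bskDN replicate 1, A or B (0.087, 0.094 and 0.091). Of 34 glutathione transferase genes 1 rose and 3 fell. GstE14 had the second largest fall of a gene with a name, with 4.01, 4.51 and 4.38 in scrib- NACT bskDN discs, against 11.12, 9.75 and 10.05 in FRT control discs (-6.003, SE 0.48, adjusted p = 5.5e-07). GstZ2 and GstT3 fell by 3.12 and 1.82.

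Nplp4, a neuropeptide-like precursor gene, had the largest fall, with 2.33, 2.76 and 2.42 in scrib- NACT bskDN discs and 9.65, 9.60 and 8.74 in the control (-6.83, SE 1.36, adjusted p = 0.0023). The other large falls outside the lists were those of jhamt, the juvenile hormone acid methyltransferase gene (-4.26), the lectin gene Lectin-galC1 (-4.28), mthl6 (-4.72), CG14234 (-4.55) and CG15353 (-5.23).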

How the data were processed

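RNA of 21 mosaic eye-antennal disc samples in 7 groups of 3 was measured on Affymetrix GeneChip Drosophila 2.0 arrays, and biotinylated cRNA was made from total RNA isolated with TRIZOL and column purified. The deposited log2 values, 1 per probe set, were made by the authors with GCRMA (sequence-based background correction, quantile normalization and probe set summary), version not stated, and which arrays were normalized together is not given in the sources used here. A level near the floor of 2.17 depends on that background correction, so fold changes against it are not bounds. No count depth exists for arrays, and their number limits the precision.

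Left out were 183 AFFX control and 3 bsk probe sets. Gene symbols came from the platform annotation, updated through the RefSeq gene table of the assembly Release 6 plus ISO1 MT (names alone). Of the tested probe sets 13644 had 1 symbol, 402 several and 4720 none. A gene is its probe set with 1 symbol and the highest mean over the 21 arrays. In R 4.3.3, limma 3.58.1 modelled the group means of all 21 arrays (lmFit, eBayes, no block), p-values were adjusted by Benjamini-Hochberg over 18766 probe sets, and calls needed an adjusted p under 0.05 and an absolute log2 change over 1. The script was tested on simulated data. Values are mean ± SD over arrays, SE is that of the fit, and "at the floor" means within 0.1 log2 of 2.17.

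Members, 41 gene lists and tests were chosen with earlier results of these data known. Named are scrib and bsk, 15 rises and 15 falls, the largest among called genes without a CG or CR number whose groups do not overlap and whose higher mean is at least 6 log2, up to 4 called members of each list, up to 4 members by level of the lists of other cell types, and every Enhancer of split, Bearded, JNK pathway and JNK-responsive gene. Further list members and genes named in the text were chosen after their values were seen. Lists are described by counts and medians. Alternatives were the 6 arrays alone, 15 arrays, further quantile normalization, a filter (mean of at least 4 log2 in a group), eBayes with trend and robust, array weights, a replicate block, a term for lettered arrays, each array left out, other fold thresholds and the mean over a gene's probe sets.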

Additional observations from a re-analysis of the deposited data

Results flagged for a closer look

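The bsk probe sets were outside all tests, and the main one stood 4.15 log2 higher in scrib- NACT bskDN discs than in FRT control discs. Their probes read transgene and endogenous RNA alike.

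The following genes were called in opposite directions against the control in 2 tumour genotypes, and the difference between the genotypes was itself called by limma. Both comparisons use the same 3 control arrays. scrib- NACT bskDN discs were below scrib- RasACT bskDN discs for the homeobox gene ro (-6.20), the sodium pump gene nrv3 (-6.19), CG14234 (-5.62), the complexin gene cpx (-5.50), GstZ2 (-4.43) and svp (-4.13). They were also below for bnl, the FGF gene (-3.49), the RNA-binding protein gene Rbp9 (-3.41), aos (-3.34), salm (-3.27), Syn, the synapsin gene (-3.12), Cpr78E (-3.12), edl (-2.63) and Atf3 (-2.48). In these 14 genes the scrib- NACT bskDN level was below the control and the scrib- RasACT bskDN level above it. By contrast, scrib- NACT bskDN discs were above scrib- RasACT bskDN discs for Lcp65Af (7.28), eyg (4.67) and Sox21b (4.25), each above the control in scrib- NACT bskDN discs and below it in scrib- RasACT bskDN discs.

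Against scrib- NACT discs the same was seen for Nplp2 (-7.28), wun2 (-6.30), Pvf1 (-4.06), Ets21C (-4.04), insc (-3.98), Cpr78E (-3.86) and Atf3 (-2.72), which were below the control with bskDN and above it without. CG4576 (5.86) and Sox21b (4.53) were above the control with bskDN and below it without. Calls against the control were lost by Syn without control replicate 2 (-0.73) and with the 6 arrays alone, by Ets21C without control replicate 1 (-0.96) and with the 6 arrays alone, by bnl (-0.99) and wun2 (-0.82) after a further quantile normalization, by bnl also with the 6 arrays alone, the replicate block or the lettered term, and by Cpr78E and Nplp2 with the replicate block.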

How the results depend on the processing

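The counts of probe sets called between scrib- NACT bskDN and FRT control discs, scrib- NACT discs or scrib- RasACT bskDN discs stayed within 1.5 times under the 14 alternatives run on each, although the count of rises was 446 against the control and 588 against scrib- RasACT bskDN discs after a further quantile normalization (294 and 389 otherwise). The 1084 probe sets called after it shared 921 with the 1070. With no minimum change 3092 probe sets passed against the control (1615 higher and 1477 lower), and with a minimum of 2 log2 448 (77 higher and 371 lower). Leaving out 1 array gave 989 to 1076 calls against the control. The replicate labels are 1, A and B in scrib- NACT bskDN and 1, 2 and 3 in the control. The arrays of the 1 shared number had a correlation of deviations of -0.154, which as 1 pair cannot show whether labels pair arrays. With the replicate block 853 were called against the control, 842 against scrib- NACT and 1050 against scrib- RasACT bskDN discs, and 3 of 13 haemocyte markers. No called gene that is named reversed, and of those not called hep turned sign when averaged over its probe sets (0.19). Of 150 named genes called, 27 lost the call under at least 1 of these 14 settings (the cause was not tested), among them Nplp2, PPO2, CG15353 and Cpr78E with the replicate block alone, and He and mthl6 with it or with the lettered term. Other named genes gained a call under at least 1 setting. klu and E(spl)mbeta-HLH were then called higher. Hr3, Eip78C, Jra, so, gl, al, Fbp2, Hsp26, Sr-CI, Sgs7 and Sgs8 were then called lower. Averaged over its probe sets, vg stood at 1.57, futsch at -1.58, nub at 1.10, Mlp60A at -1.60, Mmp2 at -1.54, Pxn at -1.79, svp at -1.15, cpx at -1.79, Rbp9 at -1.03, TpnC73F at -1.86, Zasp66 at -2.54, kay at -0.61, mam at -0.55, lola at -0.63, bnl at -0.58 and Sp1 at 0.44. GCRMA limits all values near its floor.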

Other observations

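Genes of steroid hormone synthesis were low in scrib- NACT bskDN discs. They act in the prothoracic part of the ring gland, which lies close to the brain and not in the disc, and the genes were picked out after their values were seen, so no test of the group is given. The cytochrome P450 gene phtm read 9.24, 9.49 and 9.24 in scrib- NACT bskDN discs, against 13.21, 12.29 and 12.44 in FRT control discs (-3.33, limma adjusted p = 7.1e-06). spok, the spookier gene, read 10.32, 10.05 and 10.24 in scrib- NACT bskDN discs and 14.25, 13.58 and 13.74 in the control (-3.65, adjusted p = 5e-07). sro, nvd, ouib, sad and dib fell by 3.67, 3.63, 3.45, 3.39 and 2.66, and GstE14, known as noppera-bo in this pathway, changed by -6.003. The sterol transport genes Start1 and Npc1a fell by 2.01 and 1.70. shd, whose product makes the last step outside the ring gland, was at the floor or close to it in both groups (0.11), and mld, a zinc finger gene of the pathway, differed by 0.04.

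Genes of the neighbouring endocrine cells had the same direction: jhamt of the corpora allata fell by 4.26, and Akh, the adipokinetic hormone gene of the corpora cardiaca, was at 6.33 to 6.42 in scrib- NACT bskDN discs and 9.31 to 10.54 in the control (-3.57, adjusted p = 0.00094). In scrib- NACT discs phtm was at 11.32, spok at 12.33 and Akh at 9.43, and in scrib- RasACT bskDN discs at 11.59, 13.13 and 8.95, so that for these 3 genes the scrib- NACT bskDN discs were the lowest of the 4 groups. Whether ring gland tissue was dissected with the discs was not tested.

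Under 3 log2 on all 18 arrays outside the scrib- NACT bskDN group and called higher in it were 9 named genes: acs, CG18765, CG13840, Kr, CG31262, Cpr64Ac, Iris, CG30471 and Ir56b. This set too was chosen after its values were seen, and other differences between the stocks cannot be told apart from the genotype here. Ir56b, an ionotropic receptor gene, stood at 0.94 and was not called without scrib- NACT bskDN replicate A.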
